A study of Homo sapiens with 6 samples.

Results

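The genes of cholesterol synthesis, uptake and efflux were followed as a set of 34. They were chosen by name for their known roles, with earlier results of these data known. Of these, 33 had a row in the deposited tables, which together list 26286 genes, and ABCG1 was not analysed here. RNA was sequenced from HT-1080 cells, an established human fibrosarcoma line, after 48 h with 2 µM palbociclib, an inhibitor of the cell cycle kinases CDK4 and CDK6, with 500 nM pimasertib, an inhibitor of the kinase MEK, or with the solvent DMSO. Each group held 2 libraries, numbered 1 and 2, all from 1 cell line. Whether the 2 libraries of a group come from different cultures is not stated in the labels, and the p-values therefore reflect variation among libraries that could be purely technical.

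Cholesterol is built from acetyl-CoA in a long chain of enzymes. The mostly soluble enzymes of the mevalonate pathway come first, and then mostly membrane enzymes that turn squalene into sterols. When sterols run low in the endoplasmic reticulum, SCAP escorts the transcription factors SREBP1 and SREBP2 to the Golgi, where the proteases encoded by MBTPS1 and MBTPS2 release them to switch on synthesis and uptake genes. INSIG proteins hold this complex back when sterols are plentiful, and the oxysterol-sensing LXR receptors raise efflux pumps such as ABCA1.

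Library totals ran from 13607490 to 17500655 gene counts, and 3 counts, taken as the detection floor, corresponded to 0.168 to 0.220 CPM (counts scaled to a common library size with TMM factors). All 33 measured members passed the filter on low counts, as did 14839 genes in all. Markers of leukocytes summed to 3.59 to 6.86 CPM per library, those of endothelium to 0.807 to 2.07 and those of hepatocytes and adipocytes to 0.129 to 0.541, while the fibroblast and mesenchymal list summed to 2462 to 13557, though THY1 on it had 0 to 5 counts per library. Epithelial markers summed to 311 to 627 CPM, mostly keratins, with EPCAM at 0 to 5 counts and CDH1 at 0 or 1. MKI67, a proliferation marker, was at 195 and 141 CPM with palbociclib, 225 and 222 with pimasertib, and 1172 and 816 with DMSO. SPRY4, a gene switched on by ERK signalling, was at 2.08 and 2.72 CPM with pimasertib, against 68.7 and 50.9 with DMSO. In bulk RNA, fewer cells in a given state and less RNA per cell cannot be told apart.

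How many members passed between drug and DMSO depended on whether the replicate number was in the fit. Without it, palbociclib left 1 of 33 members past the threshold against DMSO, LBR, which was lower, where 3.54% of all tested genes were called (edgeR's quasi-likelihood test, Benjamini-Hochberg adjusted p under 0.05). Of all genes, 1.11% were called higher and 2.44% lower with palbociclib. Pimasertib called 4 of 33 members against a background of 22.8%, with HMGCS1 and LSS higher, where 11.1% of all genes were, and PMVK and LBR lower, where 11.7% were. Palbociclib against pimasertib called 2 members, HMGCS1 and EBP, both lower with palbociclib, beside 9.39% of all genes in either direction and 5.07% lower. The median log2 fold change of the members was -0.11 for palbociclib and 0.13 for pimasertib against DMSO, with all tested genes at 0.00 in both, and -0.43 for palbociclib against pimasertib, with all genes at -0.02. Both medians against DMSO rested on 1 DMSO library: without DMSO replicate 2 they were 0.07 for palbociclib and 0.41 for pimasertib, and without DMSO replicate 1 they were -0.36 and -0.06. The 2 libraries of each group did not overlap for 11 of 33 members with palbociclib against DMSO (46.8% of all genes), 11 with pimasertib against DMSO (64.2%) and 20 with palbociclib against pimasertib (56.5%).

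With the replicate number as a block in the same test, 9 members passed with palbociclib against DMSO (19.9% of all genes), 13 with pimasertib against DMSO (44.1%) and 17 with palbociclib against pimasertib (31.7%). With palbociclib, 8 of the 9 were lower, namely LBR, EBP, PMVK, CYP51A1, SOAT1, SQLE, SCAP and HSD17B7, and ABCA1 was higher. With pimasertib, 9 of the 13 were higher, namely HMGCS1, LSS, MSMO1, MVD, DHCR7, MBTPS1, SREBF2, INSIG1 and STARD4, and 4 were lower, namely PMVK, LBR, SOAT1 and LPIN1. Between the drugs, 15 of the 17 were lower with palbociclib than with pimasertib, including INSIG1 at -0.84 (adjusted p = 0.000721) and DHCR7 at -0.66 (adjusted p = 0.00282), and ABCA1 and LPIN1 were higher. How the calls of all genes divided by direction with the block is not given here. Without the block, 1.11% of all genes were called higher and 2.44% lower with palbociclib, and 11.1% and 11.7% with pimasertib. For palbociclib against pimasertib these shares were 4.31% and 5.07%. Calls in the following paragraphs are without the block unless it is named.

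**Figure D1:**
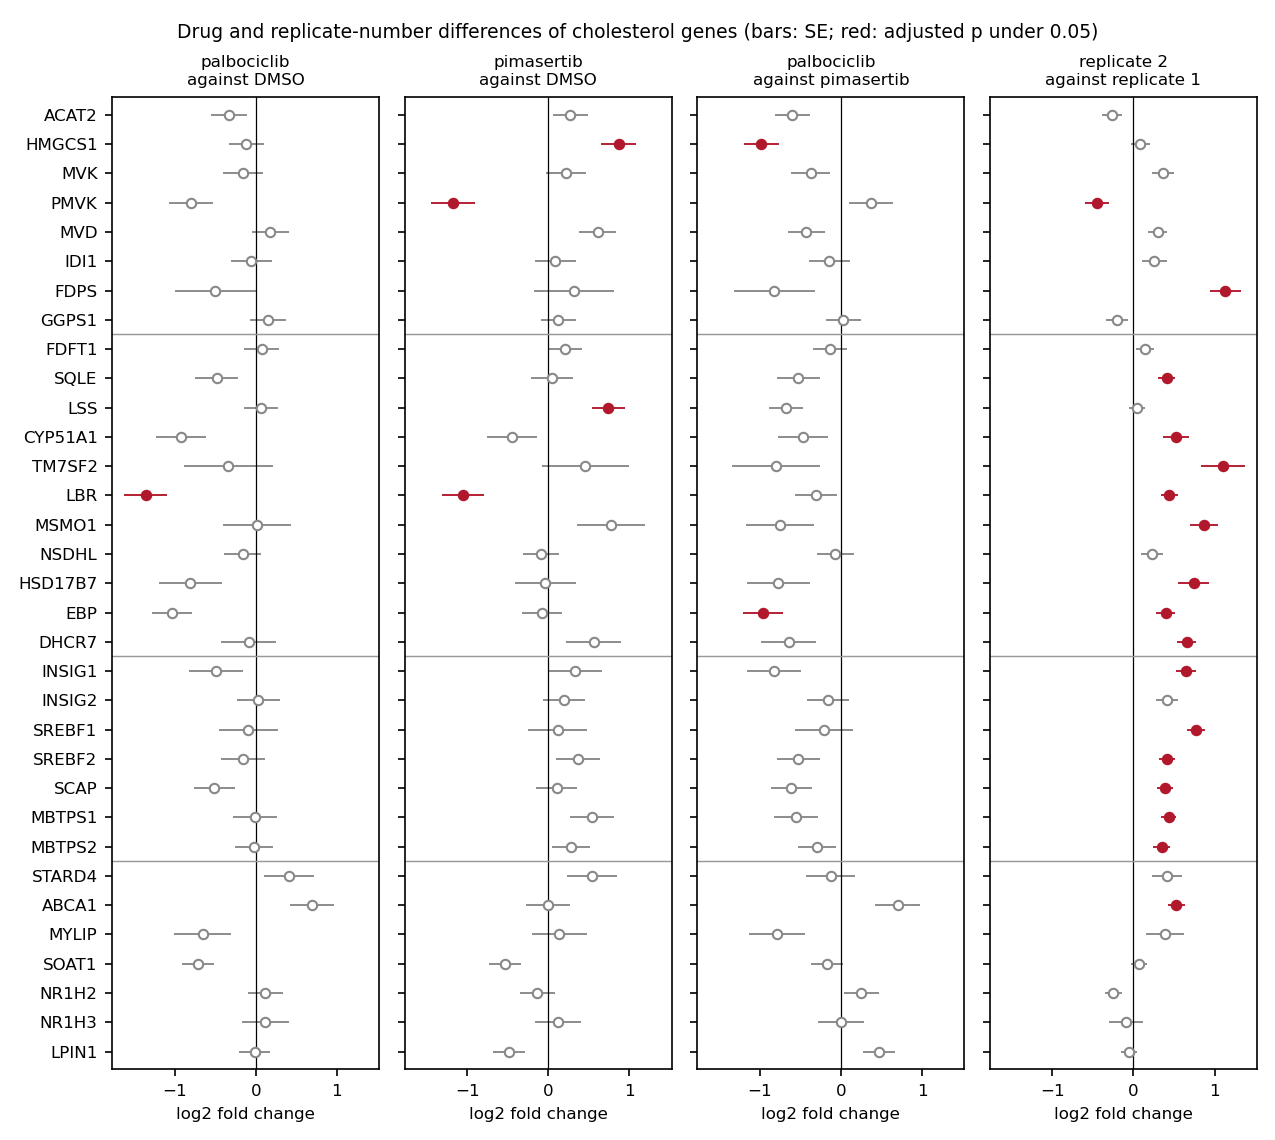
Log2 fold change of each of the 33 members (x axis) with its SE in palbociclib against DMSO, pimasertib against DMSO, palbociclib against pimasertib and replicate 2 against replicate 1. Grey lines divide the roles, and red points passed adjusted p 0.05 without a replicate block: 1, 4, 2 and 17 members.

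Among the 8 mevalonate pathway genes, HMGCS1, which makes HMG-CoA, stood at 163 and 136 CPM with pimasertib, against 72.2 and 92.0 with DMSO. The groups did not overlap, and palbociclib, at 71.1 and 80.6 CPM, stayed inside or just below the DMSO range. HMGCS1 rose with pimasertib by a log2 fold change of 0.87 (SE 0.22, adjusted p = 0.0183, edgeR) and was lower with palbociclib than with pimasertib by -0.98 (SE 0.22, adjusted p = 0.0191). The gene lies at chr5:43289497-43313614 on the minus strand (GRCh37, ENSG00000112972). The pimasertib call was lost without DMSO replicate 1 (adjusted p = 0.143), pimasertib replicate 1 (0.118) or pimasertib replicate 2 (0.0607), and the call between the drugs without palbociclib replicate 1 (0.118), pimasertib replicate 1 (0.138) or pimasertib replicate 2 (0.0733).

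PMVK, which phosphorylates phosphomevalonate, was at 12.9 and 10.3 CPM with pimasertib, against 30.5 and 21.7 with DMSO. Both pimasertib libraries lay below both DMSO libraries, and so did palbociclib at 17.7 and 12.3 CPM. PMVK (chr1:154897210-154909467, minus strand, GRCh37) fell with pimasertib by 1.17 on the log2 scale (SE 0.27, adjusted p = 0.0129), while its palbociclib value of -0.80 did not pass (adjusted p = 0.148, and 0.00606 with the block). The call was lost without DMSO replicate 1 (0.0762), pimasertib replicate 1 (0.0513) or pimasertib replicate 2 (0.130). None of the other 6 mevalonate genes passed in a drug comparison. MVD, the decarboxylase that ends in isopentenyl diphosphate, came nearest with pimasertib at a log2 fold change of 0.61 (adjusted p = 0.0805, and 0.00217 with the block), with 72.5 and 81.4 CPM against 41.0 and 60.1 with DMSO. The log2 fold changes of the other 5, which are the thiolase ACAT2, mevalonate kinase MVK, the isomerase IDI1, and the prenyl diphosphate synthases FDPS and GGPS1, ran from -0.50 for FDPS to 0.15 for GGPS1 with palbociclib and from 0.09 for IDI1 to 0.32 for FDPS with pimasertib.

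Of the 11 enzymes from squalene to sterol, LSS, which folds squalene epoxide into lanosterol, was at 263 and 256 CPM with pimasertib, against 148 and 162 with DMSO. Palbociclib, at 159 and 164 CPM, lay close to DMSO. LSS (chr21:47608055-47648738, minus strand, GRCh37) rose with pimasertib by 0.74 (SE 0.21, adjusted p = 0.0274). That call was lost without DMSO replicate 1 (0.176), DMSO replicate 2 (0.0593), pimasertib replicate 1 (0.120) or pimasertib replicate 2 (0.117).

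LBR was the one member called against DMSO with both drugs. It encodes the lamin B receptor of the inner nuclear membrane, which is also a sterol reductase. Its level was 58.5 and 81.2 CPM with palbociclib, 78.0 and 94.6 with pimasertib, and 144 and 214 with DMSO. Every drug-treated library lay below both DMSO libraries, which are shared by the comparisons. LBR (chr1:225589204-225616627, minus strand, GRCh37) fell by 1.36 with palbociclib (SE 0.26, adjusted p = 0.0186) and by 1.05 with pimasertib (SE 0.26, adjusted p = 0.0170). The palbociclib call was lost without pimasertib replicate 2 (0.0548), and the pimasertib call without DMSO replicate 2 (0.0577), pimasertib replicate 1 (0.125) or pimasertib replicate 2 (0.0876). TM7SF2, the other sterol reductase for the same step, had 2.79 and 4.31 CPM with palbociclib, 4.09 and 8.34 with pimasertib, and 2.19 and 6.90 with DMSO, and its groups overlapped. SQLE, which makes squalene epoxide, was at 98.9 and 111 CPM with palbociclib, 130 and 172 with pimasertib, and 114 and 180 with DMSO. Its palbociclib libraries lay below the others, by -0.48 against DMSO (adjusted p = 0.365, and 0.0291 with the block). Squalene synthase FDFT1 and NSDHL, which removes carbon from methylated sterols, stayed within 0.21 of DMSO on the log2 scale with either drug.

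EBP, a sterol isomerase, stood at 21.5 and 26.2 CPM with palbociclib, 41.8 and 50.9 with pimasertib, and 38.7 and 59.1 with DMSO. The palbociclib libraries were below all the others. EBP (chrX:48379546-48387104, plus strand, GRCh37) was lower with palbociclib than with pimasertib by -0.96 (SE 0.25, adjusted p = 0.0375), a call lost without palbociclib replicate 1 (0.150), pimasertib replicate 1 (0.0997) or pimasertib replicate 2 (0.285). Against DMSO its value of -1.04 (SE 0.25) missed the threshold at an adjusted p of 0.0502, and passed with DESeq2 (0.0124), with the replicate block (0.000305) or without DMSO replicate 1 (0.00488). The authors' deposited table gives EBP an adjusted p of 0.0270 for palbociclib and otherwise calls the same members as here.

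**Figure D2:**
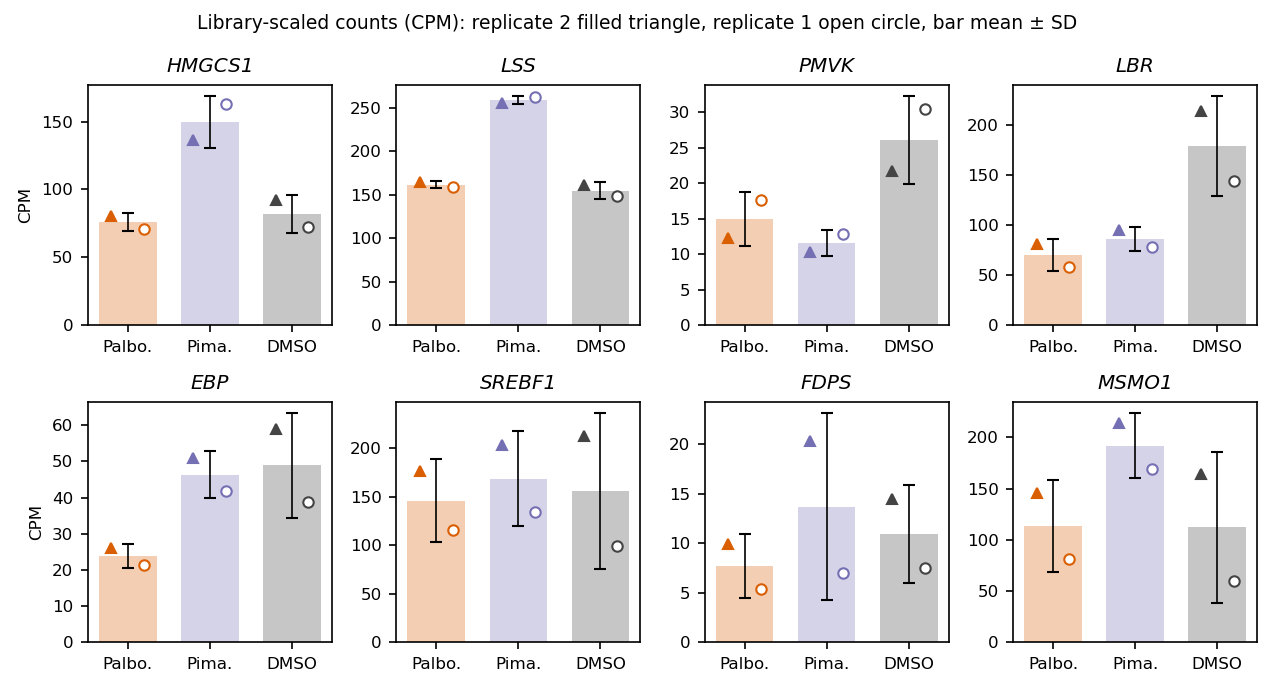
CPM of 8 members (y axis, from 0) with palbociclib, pimasertib and DMSO, with replicate 2 as a filled triangle, replicate 1 as an open circle and bars at the mean ± SD (n = 2). LBR is lower in all 4 drug-treated libraries, HMGCS1 and LSS are higher in both pimasertib libraries, and SREBF1, FDPS and MSMO1 are higher in replicate 2 of every group.

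None of the 7 genes of SREBP control passed in palbociclib against DMSO or in pimasertib against DMSO with edgeR or with DESeq2. At an unadjusted p under 0.05, edgeR gave 0 in both comparisons, and DESeq2 gave 0 with palbociclib and 1 with pimasertib. With the replicate block, SCAP was lower with palbociclib at -0.50 (adjusted p = 0.0102). With pimasertib the block called MBTPS1 at 0.56 (adjusted p = 0.00165), SREBF2 at 0.38 (adjusted p = 0.0226) and INSIG1 at 0.40 (adjusted p = 0.0416), all higher. INSIG1, itself an SREBP target, was at 81.1 and 116 CPM with palbociclib, 151 and 197 with pimasertib, and 90.7 and 186 with DMSO. The DMSO libraries spanned most of that range.

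None of the 7 measured genes of uptake, efflux and storage passed against DMSO with edgeR, while 2 had an unadjusted p under 0.05 with each drug. SOAT1, which esterifies cholesterol for storage, came nearest at 87.9 and 91.1 CPM with palbociclib, 99.8 and 102 with pimasertib, and 141 and 153 with DMSO. Its replicates were close and every drug-treated library lay below DMSO, with log2 fold changes of -0.72 (adjusted p = 0.0811) and -0.54 (adjusted p = 0.0723), and DESeq2 called it with palbociclib (0.0277). The block called it with both drugs (adjusted p = 0.000881 with palbociclib and 0.00206 with pimasertib). ABCA1, the pump that exports cholesterol to apolipoproteins, was at 60.6 and 85.5 CPM with palbociclib, 37.5 and 52.6 with pimasertib, and 35.9 and 54.4 with DMSO. The palbociclib libraries lay above all others, but the value of 0.69 (SE 0.27) did not pass (adjusted p = 0.210, and 0.00185 with the block). STARD4, a carrier that moves sterol between membranes, was at 39.9 and 56.7 CPM with palbociclib, 56.8 and 48.7 with pimasertib, and 24.5 and 48.2 with DMSO. The DMSO libraries lay far apart, and STARD4 passed in neither comparison without the block, and with pimasertib with it (adjusted p = 0.0467). LPIN1, an SREBP-responsive phosphatase of lipid synthesis, was at 81.3 and 76.8 CPM with pimasertib, against 109 and 113 with DMSO, and its -0.49 did not pass (adjusted p = 0.0969, and 0.00485 with the block). MYLIP, a ligase that degrades lipoprotein receptors, had a log2 fold change of -0.66 with palbociclib (adjusted p = 0.357), and the LXR genes NR1H2 and NR1H3 were at 0.12 each.

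Many of these genes also passed the test between replicate numbers. In the libraries numbered 2 against those numbered 1, with the group as a term in the edgeR fit, 17 of 33 members passed, beside 19.7% of all genes. Of these, 16 were higher in replicate 2, where 11.1% of all genes were called higher, and PMVK was lower, as were 8.63% of all genes. The members' median log2 fold change was 0.39, against -0.01 for all genes. In each group most members were higher in replicate 2: 28 of 33 with palbociclib, 22 of 33 with pimasertib and 28 of 33 with DMSO, where 51.4%, 48.7% and 47.4% of all tested genes were. The direction was shared by all 3 groups for 25 of 33 members and 53.8% of all genes.

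**Figure D3:**
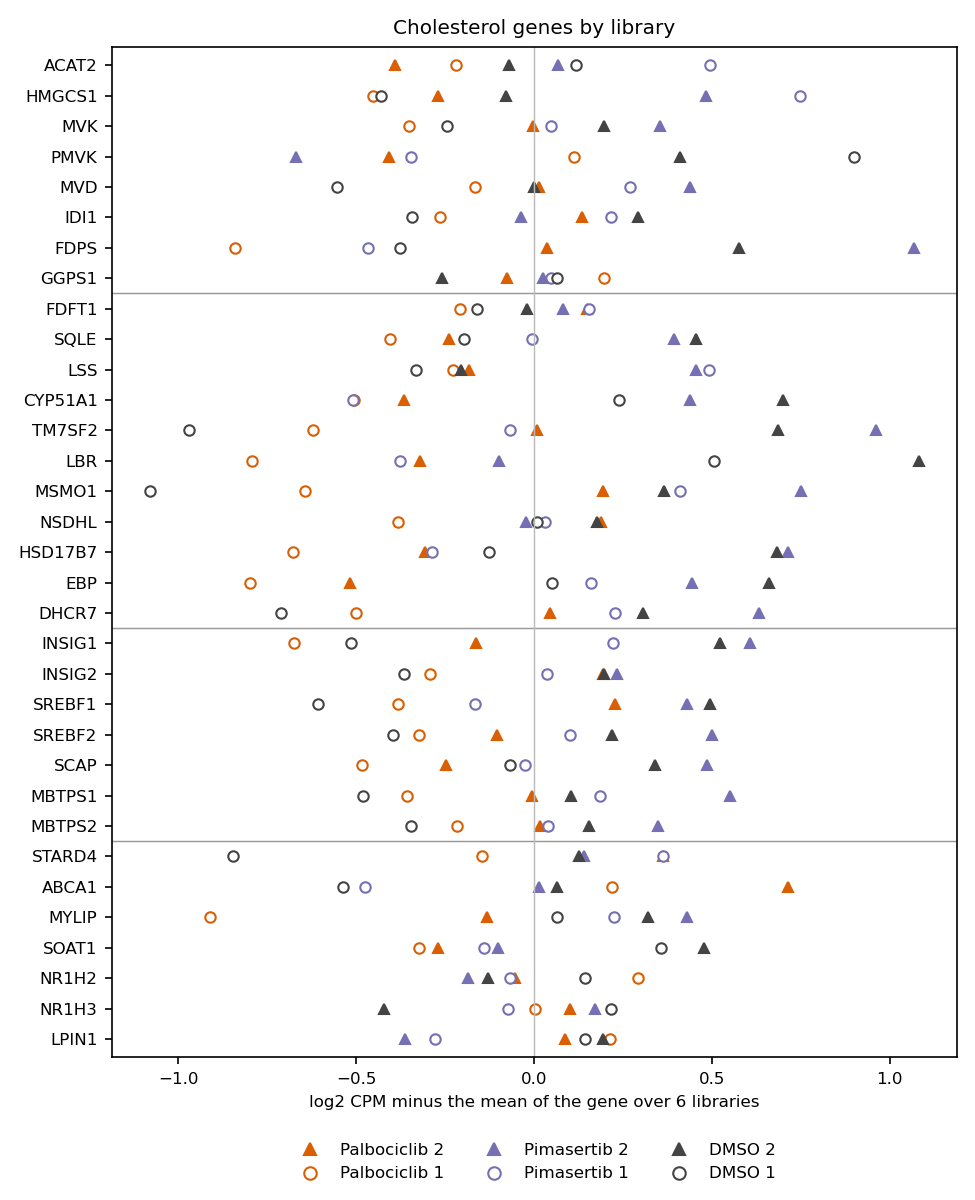
Log2 CPM of the 33 members minus each gene's mean over 6 libraries (x axis), with replicate 2 as filled triangles and replicate 1 as open circles, coloured by group. Triangles lie right of circles of the same colour for 28 members with palbociclib, 22 with pimasertib and 28 with DMSO.

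The calls fell mostly in the squalene to sterol enzymes, with 8 of 11, and in SREBP control, with 6 of 7, against 2 of 8 in the mevalonate pathway and 1 of 7 in uptake, efflux and storage. SREBF1, which encodes SREBP1, was at 176, 203 and 212 CPM in replicate 2 of palbociclib, pimasertib and DMSO, against 116, 134 and 98.9 CPM in replicate 1. Every library numbered 2 lay above every library numbered 1, a log2 fold change of 0.77 (SE 0.11, adjusted p = 0.00100). SREBF2, which encodes SREBP2, was at 335, 510 and 420 CPM in replicate 2 of the same groups, against 288, 386 and 274 CPM in replicate 1. It was higher in replicate 2 within each group, but the numbers overlapped between groups, and the difference was 0.41 (SE 0.10, adjusted p = 0.0144). INSIG1 was at 116, 197 and 186 CPM in replicate 2, against 81.1, 151 and 90.7 CPM in replicate 1, a difference of 0.64 (SE 0.12, adjusted p = 0.00386).

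The SREBP escort SCAP was at 151, 251 and 227 CPM in replicate 2 of palbociclib, pimasertib and DMSO, against 128, 176 and 171 CPM in replicate 1. The protease gene MBTPS1 was at 256, 377 and 276 CPM in replicate 2, against 201, 292 and 184 CPM in replicate 1. MBTPS2 was at 77.3, 97.1 and 85.0 CPM in replicate 2, against 65.6, 78.5 and 60.1 CPM in replicate 1. All 3 were higher in replicate 2 within each group, with log2 fold changes of 0.39, 0.43 and 0.35 (adjusted p = 0.0161, 0.00892 and 0.0325). INSIG2, the other INSIG gene, did not pass at 0.41 (adjusted p = 0.0518), although its libraries numbered 2 all lay above those numbered 1.

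FDPS, farnesyl diphosphate synthase, had 9.97, 20.4 and 14.5 CPM in replicate 2 of palbociclib, pimasertib and DMSO, against 5.43, 7.03 and 7.47 CPM in replicate 1. The numbers did not overlap, and the difference of 1.13 (SE 0.19, adjusted p = 0.00216) was the largest of the 33. FDPS overlaps the antisense gene RUSC1-AS1 over 3804 bases and has pseudogene copies. The sources used here give no strand setting for the counting, so its reads are uncertain, as are those of HSD17B7, which has the copy HSD17B7P2. Other members overlap listed genes too. Among them are SREBF1 with RAI1 (opposite strand, 1055 bases), MBTPS2 with YY2 (same strand, 2741) and ACAT2 with SOD2 (opposite strand, 2202). Their reads carry a like uncertainty. MSMO1, which removes methyl groups from sterols, was at 145, 214 and 164 CPM in replicate 2, against 81.5, 169 and 60.3 CPM in replicate 1. It was higher in replicate 2 of each group, by 0.87 (SE 0.17, adjusted p = 0.00819), and most so with DMSO, at 1.44. DHCR7, the last reductase of one branch, had 261, 392 and 313 CPM in replicate 2, against 179, 296 and 155 CPM in replicate 1, a difference of 0.65 (SE 0.12, adjusted p = 0.00274).

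The other sterol enzymes called covered a wide range of levels. TM7SF2 was at 4.31, 8.34 and 6.90 CPM in replicate 2 of palbociclib, pimasertib and DMSO, against 2.79, 4.09 and 2.19 CPM in replicate 1, and rose by 1.10 (SE 0.27, adjusted p = 0.0131). HSD17B7, a sterol ketone reductase, was at 7.39, 15.01 and 14.7 CPM in replicate 2, against 5.72, 7.49 and 8.38 CPM in replicate 1. The numbers did not overlap for TM7SF2, and for HSD17B7 (0.74, adjusted p = 0.0183) they did between groups. CYP51A1, the lanosterol demethylase, was at 18.0, 31.4 and 37.7 CPM in replicate 2, against 16.4, 16.3 and 27.4 CPM in replicate 1. SQLE was at 111, 172 and 180 CPM in replicate 2, against 98.9, 130 and 114 CPM in replicate 1. Both were higher in replicate 2 of each group, by 0.52 for CYP51A1 (adjusted p = 0.0325) and 0.41 for SQLE (adjusted p = 0.0200).

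LBR was at 81.2, 94.6 and 214 CPM in replicate 2, against 58.5, 78.0 and 144 CPM in replicate 1. EBP was at 26.2, 50.9 and 59.1 CPM in replicate 2, against 21.5, 41.8 and 38.7 CPM in replicate 1. Both rose in replicate 2, by 0.44 for LBR (adjusted p = 0.0105) and 0.40 for EBP (adjusted p = 0.0326), which for LBR is smaller than its difference with either drug. ABCA1, the one gene called among those of uptake, efflux and storage, was at 85.5, 52.6 and 54.4 CPM in replicate 2, against 60.6, 37.5 and 35.9 CPM in replicate 1, a difference of 0.53 (SE 0.11, adjusted p = 0.00522). PMVK was at 12.3, 10.3 and 21.7 CPM in replicate 2, against 17.7, 12.9 and 30.5 CPM in replicate 1. It was lower in replicate 2 of each group, by -0.45 (SE 0.15, adjusted p = 0.0466). Of all 33 members, 5 had no overlap between the numbers (11.7% of all genes), namely SREBF1, FDPS, TM7SF2 and INSIG2, which were higher in replicate 2, and GGPS1, which was lower and was not called.

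With DMSO replicate 1 or DMSO replicate 2 left out, the members' median log2 fold change between the numbers was 0.28 instead of 0.39. With both left out it was 0.29, and 3 members passed instead of 17: FDPS, MSMO1 and SREBF1. Without palbociclib replicate 1 or 2, 11 and 13 passed, and without pimasertib replicate 1 or 2, 22 and 23. Transcripts of the 13 mitochondrial-genome genes made up 6.31%, 8.76% and 5.67% of counts in replicate 2 of palbociclib, pimasertib and DMSO, against 4.57%, 4.25% and 3.21% in replicate 1. Of these genes, 9 were called higher in replicate 2, where 11.1% of all genes were, and their part in the result was not tested. Of the 7 tested fibroblast and mesenchymal markers, 5 were called higher in replicate 2, beside the same 11.1% of all genes. The list summed to 6032, 13557 and 3893 CPM in replicate 2 of the same groups, against 3921, 9787 and 2462 CPM in replicate 1. All 5 proliferation genes had values below 0 in replicate 2 against replicate 1, and 3 of them were called lower, where 8.63% of all genes were. The part of either list in the result was not tested. The labels do not say what the numbers stand for. The fit for the number takes the shift out of its residual spread and the drug fit does not, so counts of calls from the 2 fits rest on different errors.

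To show the sequence context of genes that moved with the number, 4 promoters are printed, covering the 250 bases before the RefSeq start (GRCh38.p14), all on the plus strand: SREBF2 at chr22:41832855-41833104, INSIG1 at chr7:155297628-155297877, FDPS at chr1:155308616-155308865 and MSMO1 at chr4:165327419-165327668. Capitals mark the sterol regulatory element TCACNCCAC, the site that SREBPs bind, and the NF-Y box CCAAT, the site of a common SREBP partner, each searched on both strands so that the box also reads ATTGG.
SREBF2: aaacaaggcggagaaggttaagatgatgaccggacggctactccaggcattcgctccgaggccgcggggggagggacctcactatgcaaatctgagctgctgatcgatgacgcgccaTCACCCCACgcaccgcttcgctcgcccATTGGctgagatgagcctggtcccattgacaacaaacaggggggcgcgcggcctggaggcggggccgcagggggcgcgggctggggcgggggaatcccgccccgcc
INSIG1: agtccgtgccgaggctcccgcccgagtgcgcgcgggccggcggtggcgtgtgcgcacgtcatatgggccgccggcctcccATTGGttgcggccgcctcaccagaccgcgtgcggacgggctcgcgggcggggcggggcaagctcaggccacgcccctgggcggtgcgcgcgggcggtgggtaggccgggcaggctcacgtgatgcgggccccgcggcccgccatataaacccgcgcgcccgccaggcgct
FDPS: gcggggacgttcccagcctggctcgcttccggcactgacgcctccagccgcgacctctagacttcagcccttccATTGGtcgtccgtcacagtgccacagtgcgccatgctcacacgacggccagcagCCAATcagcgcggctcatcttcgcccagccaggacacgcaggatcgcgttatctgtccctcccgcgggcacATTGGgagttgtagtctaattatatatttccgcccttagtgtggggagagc
MSMO1: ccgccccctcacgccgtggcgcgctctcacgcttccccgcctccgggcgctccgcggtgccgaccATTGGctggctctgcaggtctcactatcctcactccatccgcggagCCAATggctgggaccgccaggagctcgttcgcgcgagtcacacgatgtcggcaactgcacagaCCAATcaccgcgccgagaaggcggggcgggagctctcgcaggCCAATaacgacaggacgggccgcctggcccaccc
SREBF2 held the only exact match to TCACNCCAC among the 30 members matched to a promoter, at -133 from the start. Of all 27305 promoters, 0.875% held such a match. Forms of the element that differ from these letters were not searched, nor were bases outside the 250. The NF-Y box was in 16 of 30 members and in 33.0% of all promoters. The GGGCGG box of SP1 was in 24 of 30 against 42.3% and the E-box CACGTG in 3 of 30 against 6.49%. Members called in the replicate comparison numbered 8 of the 16 with an NF-Y box and 8 of the 14 without. A match is a description of these letters, and no binding was measured.

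Set against each other within the members, the replicate difference was larger in size than the drug difference for 18 of 33 with palbociclib (44.2% of all genes), 21 of 33 with pimasertib (29.5%) and 16 of 33 for palbociclib against pimasertib (36.5%). The members' median size of the replicate difference was 0.397 on the log2 scale, with 0.280 for all genes. Their median size of the drug difference was 0.162 with palbociclib and 0.275 with pimasertib against DMSO, with 0.332 and 0.532 for all genes. For palbociclib against pimasertib it was 0.472, with 0.409 for all genes. Drug and DMSO libraries of the same number differed by a median of -0.20 in replicate 2 and -0.02 in replicate 1 with palbociclib, and by 0.10 and 0.29 with pimasertib. In both same-numbered pairs, 20 of 33 members kept a direction with palbociclib against DMSO (73.7% of all genes), 23 of 33 with pimasertib against DMSO (81.1%) and 26 of 33 with palbociclib against pimasertib (75.1%).

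The 4 members called against DMSO kept their direction in both pairs. This follows from their groups not overlapping and adds no support to the calls. LBR differed by -1.40 in replicate 2 and -1.30 in replicate 1 with palbociclib, and by -1.18 and -0.88 with pimasertib. HMGCS1 differed by 0.56 and 1.17 with pimasertib, LSS by 0.66 and 0.82, and PMVK by -1.07 and -1.24. MSMO1 differed by 0.38 and 1.49 with pimasertib and by -0.17 and 0.43 with palbociclib, so its size or direction depended on the number. The summed level of the 19 synthesis enzymes was 1262, 1764 and 1618 CPM in replicate 2 of palbociclib, pimasertib and DMSO, against 1003, 1566 and 1098 CPM in replicate 1. Pimasertib was highest in each number, and the DMSO libraries differed from each other by more than either drug pair did.

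**Figure D4:**
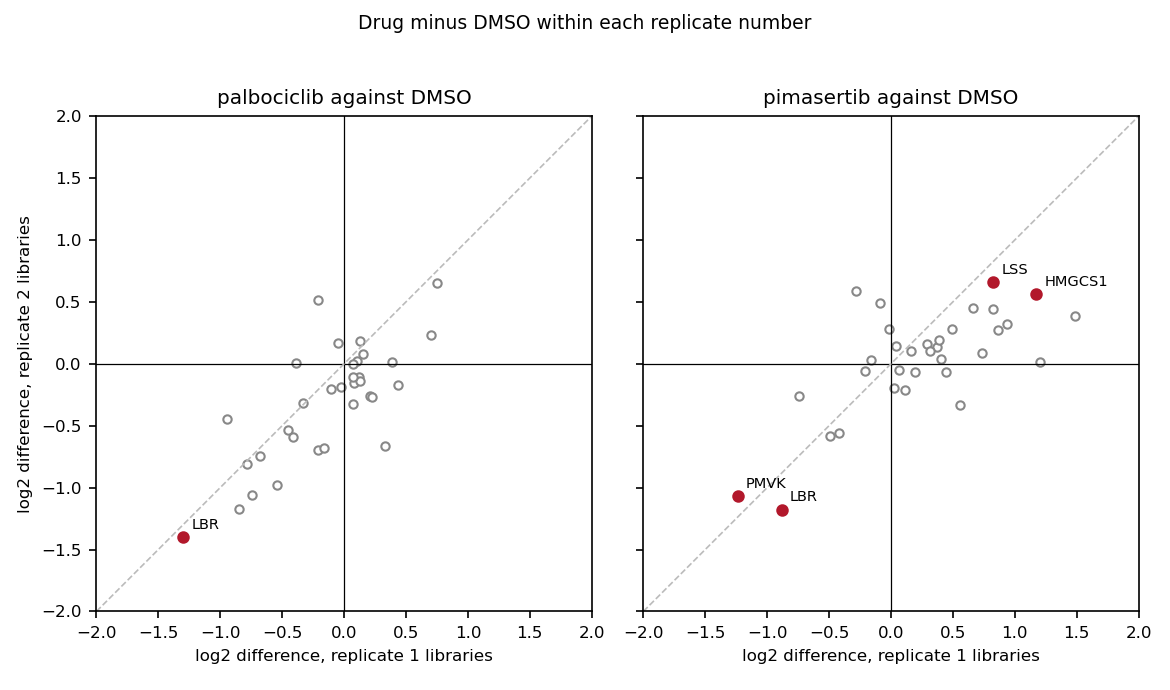
Log2 CPM of the drug library minus the DMSO library of the same number, for replicate 1 (x axis) and replicate 2 (y axis), with 1 point per member and the dashed line at equality. The members called against DMSO, in red, lie on the same side of 0 on both axes, which follows from their groups not overlapping. Of all members, 20 of 33 with palbociclib and 23 of 33 with pimasertib do so.

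Levels per transcript length were compared in DMSO by the deposited FPKM. DHCR7 was highest at 57.0 and 116 FPKM, followed by SREBF2 at 47.2 and 72.3, whose range overlapped it. TM7SF2 was lowest at 1.03 and 3.24 FPKM.

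Other genes around sterol handling were read against the same shares of all genes, 3.54% called with palbociclib and 22.8% with pimasertib. Of 16 genes of sterol uptake and intracellular transport, 1 passed with palbociclib and 7 with pimasertib, 4 higher and 3 lower. With the replicate block 6 and 9 passed, where 19.9% and 44.1% of all genes did. LRP1, an endocytic receptor, was at 724 and 1101 CPM with pimasertib, against 160 and 245 with DMSO, a rise of 2.17 (SE 0.35, adjusted p = 0.00187). VLDLR, a lipoprotein receptor, was at 4.96 and 5.30 CPM with pimasertib, against 14.0 and 20.4 with DMSO, a change of -1.75 (adjusted p = 0.00198). TMEM97, an endoplasmic reticulum protein tied to sterol transport, was at 20.2 and 18.7 CPM with palbociclib, against 55.4 and 71.8 with DMSO, a change of -1.71 (adjusted p = 0.00246). Dropping any single one of the 6 libraries kept these 3 calls. STARD5, a lipid carrier, rose by 2.72 with pimasertib, the lysosomal lipase LIPA by 1.39 and the HDL receptor SCARB1 by 1.09, while the sterol carrier GRAMD1B fell by 0.94 and TMEM97 by 0.71. Each of those lost its call in at least 1 such fit, with the highest adjusted p between 0.0826 for GRAMD1B without pimasertib replicate 1 and 0.277 for SCARB1 without pimasertib replicate 2. Palbociclib against pimasertib called VLDLR at 1.19, STARD5 at -3.22 and TMEM97 at -1.0015. STARD5 had few reads outside pimasertib, with 18 and 7 counts in DMSO and 5 and 13 in palbociclib, against 77 and 94. The size of both its differences is therefore uncertain.

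With pimasertib, where 22.8% of all genes were called, 2 of 10 upstream and fatty acid SREBP targets passed, a share near that background, ME1 (0.85), which supplies reducing power, and ELOVL6 (-0.80), which lengthens fatty acids. Among the genes of sterol-regulated degradation and SREBP control, ERLIN2 (0.82) and RNF145 (-1.26) passed. Of 12 genes of isoprenoid use, 1 passed, PDSS1 (-0.94) of ubiquinone synthesis, which is below that share, and of 5 tested oxysterol and LXR genes 0 passed in edgeR or DESeq2, with 0 at an unadjusted p under 0.05. Each of these pimasertib calls was lost in at least 1 fit without 1 library. None of these 4 lists had a call with palbociclib against DMSO in edgeR, where 4, 2, 1 and 1 genes had an unadjusted p under 0.05, and DESeq2 called 1 gene of degradation. With the replicate block, 19.9% of all genes were called with palbociclib and 44.1% with pimasertib. There the fatty acid, degradation (9 genes), isoprenoid and oxysterol lists had 5, 2, 3 and 1 calls with palbociclib. With pimasertib they had 5, 4, 4 and 3. Between the drugs, ERLIN2 (-0.84) and RXRA (-0.90), the partner of LXR, were lower with palbociclib.

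In the replicate comparison, where 19.7% of all genes were called, 6 of 16 transport genes passed, with LIPA (0.76), SCARB1 (0.71), LRP1 (0.66) and LRP8 (0.53) higher in replicate 2 and OSBP (-0.30) lower. Of the fatty acid list FADS2 (0.68), SCD (0.60) and FADS1 (0.47) were higher, and of the degradation list SYVN1 (0.81), ERLIN1 (0.49), RNF139 (0.39) and RNF145 (0.39). SMPDL3A (0.79) and RABGGTB (0.48) were higher, and NCOR1 (-0.54) and DHDDS (-0.42) lower. With both DMSO libraries left out, FADS2, LRP1, SCARB1, SYVN1 and RABGGTB still passed in edgeR. The other genes named here did not, among them LIPA (adjusted p = 0.0892), ERLIN1 (0.0625) and NCOR1 (0.0582). RABGGTB in turn lost its call with both palbociclib libraries left out (0.107).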

How the data were processed

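RNA-seq of 6 HT-1080 libraries, 2 per group, was taken from the deposited tables of read counts per gene, which the authors made as raw, unnormalized counts. Per the submitters' processing notes, tools include CASAVA, STAR 2.5, HTSeq 0.6.1 and DESeq2, with hg19 or GRCh37 as the build. The authors' deposited FPKM values were used to order levels in DMSO. The authors' log2 fold changes and p-values, and their mean signal columns, are in the same tables, and only the authors' adjusted p was used. A gene listed in 1 table was given 0 counts in the libraries of the other.

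From the counts, edgeR 4.0.16 in R 4.3.3 fitted 1 quasi-likelihood model over 6 libraries after TMM scaling and a filter at a minimum count of 10 (total 15), and p-values were adjusted by Benjamini-Hochberg over 14839 genes. The replicate comparison added the number to the group. CPM used TMM-scaled totals, log2 CPM a prior count of 2, and floors cover counting error only. The SEs come from the quasi-likelihood fit and include the spread between libraries. Alternatives were other size factors, DESeq2 1.42.0, other filters, fewer libraries and a replicate block. Replicates differed beyond sampling noise, with chi-square per degree of freedom 40.0 (palbociclib), 49.4 (pimasertib) and 53.2 (DMSO). All members are named, with per-library values for those past the threshold and for HMGCS1, SQLE, INSIG1, SREBF1, SREBF2, ABCA1 and STARD4. Of each other list up to 4 called genes per direction and comparison are named, apart from a called gene that is not reported here. MVD, SOAT1, LPIN1 and the promoters of 4 members were chosen after their values were seen. The labels do not say that numbers pair the libraries, but replicate differences went together across 14839 genes in all 3 pairs of groups, with r = 0.397 for palbociclib and DMSO, 0.351 for pimasertib and DMSO and 0.345 for palbociclib and pimasertib, so values with the block are given beside those without. The members and lists were chosen with earlier results of these data known.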

Additional observations from a re-analysis of the deposited data

How the results depend on the processing

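No member called in the main comparison changed direction under the alternatives run, while the members' median log2 fold change against DMSO did, at 0.07 instead of -0.11 with palbociclib without DMSO replicate 2 and at -0.06 instead of 0.13 with pimasertib without DMSO replicate 1. The count of members called was 1 with palbociclib against DMSO, and 3 with no filter on low counts, 3 with DESeq2 and 0 with the 4 libraries of the comparison. Over all genes that count was 526, and 1097 with no filter, 834 with DESeq2 and 325 with the 4 libraries. For palbociclib against pimasertib, no filter gave 5 members instead of 2 and 2256 genes instead of 1393. The replicate comparison called 17 members and 2923 genes, and 3 and 606 with no DMSO library, and 8 and 614 with no palbociclib library. Leaving out 1 library gave 0 to 2 members and 334 to 762 genes with palbociclib against DMSO, 0 to 7 and 1055 to 4082 with pimasertib against DMSO, 0 to 3 and 456 to 1941 between the drugs, and 5 to 23 and 1020 to 4124 for the replicate number. The cause was not tested, beyond fewer samples or genes where the alternative removes them.

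With the number as a replicate block, 9 members and 2953 genes were called with palbociclib against DMSO, 13 and 6551 with pimasertib against DMSO (4 and 3376 without the block), and 17 and 4702 between the drugs. With 2 libraries a group, each drug call among the members, other than that of LBR with palbociclib, failed in 3 or more of the fits that left out 1 library, and that of LBR with palbociclib failed in 1.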

Other observations

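A split of the members by where their protein sits was made after the values were seen and is given with no test. Of 20 members whose protein lies in a membrane, 15 were called higher in replicate 2 than in replicate 1. Of 13 soluble members, 1 was called higher (FDPS) and 1 lower (PMVK). Of all tested genes, 11.1% were called higher and 8.63% lower.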
